A study of Mus musculus with 15 samples.

Results

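The genes described here are 10 named components of 3 lytic forms of regulated cell death, followed in mouse kidney over 4 treatment groups. Gpx4, Acsl4 and Slc7a11 belong to ferroptosis, Ripk1, Ripk3 and Mlkl to necroptosis, and Gsdmd, Casp1, Casp4 and Pycard to pyroptosis. They were taken by symbol from the deposited table of raw read counts. All 10 of the 10 symbols were found, among 23866 genes in the table, and all 10 passed the filter on low counts that left 16105 genes for testing. Their lowest count in any library was 16, so no level below rests on a gene at 0.

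Kidneys of male C57BL/6 mice were sequenced as bulk RNA, 1 library per kidney sample. The olive oil group (3 libraries) received the vehicle, olive oil, by intraperitoneal injection for 6 weeks. The CCl4 group (4 libraries) received carbon tetrachloride, a solvent known to injure liver and kidney, by the same route for 6 weeks. In CCl4 replicates 3 and 4 this was followed by 4 weeks at a lower dose, 10 weeks in all. The EtOH group (4 libraries) received olive oil for 6 weeks and then ethanol for 4 weeks, so the effect of ethanol and of the 4 further weeks cannot be told apart when it is set against olive oil. The CCl4+EtOH group (3 libraries) received CCl4 for 6 weeks and then ethanol for 4 weeks, and the labels do not settle whether CCl4 went on beside the ethanol. Set against olive oil, this group differs in duration as well as in treatment, with 10 weeks against 6. Because the CCl4 group mixes 6 and 10 weeks, duration also enters its comparisons and the interaction described below. Only CCl4+EtOH against EtOH compares libraries that all had 10 weeks. The sources used here state no dose, age or route of ethanol. The series lists a further olive oil sample, which was not analysed here.

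Ferroptosis is death by runaway peroxidation of membrane lipids. It depends on iron and on polyunsaturated phospholipids, and it is held back by glutathione and by the enzyme that spends glutathione on lipid peroxides. Necroptosis runs from death receptors through a pair of kinases to a protein that permeabilises the plasma membrane. Pyroptosis runs from inflammasomes through inflammatory caspases to gasdermin pores, with release of interleukin-1 family cytokines. In kidney, tubule epithelium is the tissue in which ferroptosis and necroptosis have mostly been studied, while inflammasome genes are also known from macrophages and other myeloid cells.

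Library totals ran from 16.4 M to 23.5 M counts. Levels are given as CPM, the count scaled to the size of its library (with TMM factors), and each gene is compared only with itself, since the values are not per length. Some libraries stood apart. CCl4+EtOH replicate 3 lay between the olive oil libraries and the other CCl4+EtOH libraries, and its summed level of 9 tubule injury markers was 5310 CPM, against 40178 and 29423 CPM in replicates 1 and 2 and 1075 to 1741 CPM under olive oil. EtOH replicates 1 to 3 held adrenal transcripts, with 891, 757 and 1206 CPM summed over 11 markers, against 9.19 CPM in EtOH replicate 4. In bulk tissue, fewer cells of a type and less RNA per cell cannot be told apart. The summed level of 14 proximal tubule markers was 49135 to 56887 CPM under olive oil, 46291 to 56905 CPM under CCl4, 31871 to 38098 CPM under EtOH and 10790 to 25484 CPM under CCl4+EtOH. Kidney markers were thus present in every library. The sum was below all olive oil libraries in every EtOH library as well as in every CCl4+EtOH library. A sum weighs the most abundant markers most. For EtOH against olive oil, 9 of the 14 markers had a log2 change above 0. The median was 0.03, the lowest value -1.34, and 0 of the 14 passed (edgeR adjusted p under 0.05). For CCl4+EtOH against olive oil, 1 of the 14 was above 0 and 7 passed as lower.

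After CCl4+EtOH, 8 of the 10 genes rose against olive oil, Gpx4 fell and Ripk1 did not pass the test (edgeR quasi-likelihood test, adjusted p under 0.05). Over all genes tested, 18.9% were called higher in this comparison and 16.6% lower, 35.4% in either direction. The same 8 genes rose and Gpx4 fell against EtOH, where 18.1% of all genes were called higher and 16.2% lower (34.2% in all), and against CCl4, where the shares were 18.7% and 16.2% (34.8% in all). The median log2 change of the 10 genes was 0.89 against olive oil, 1.01 against EtOH and 1.03 against CCl4, beside 0.02, 0.00 and 0.02 for all genes. These comparisons share the CCl4+EtOH libraries, so their calls are not independent of each other.

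**Figure D1:**
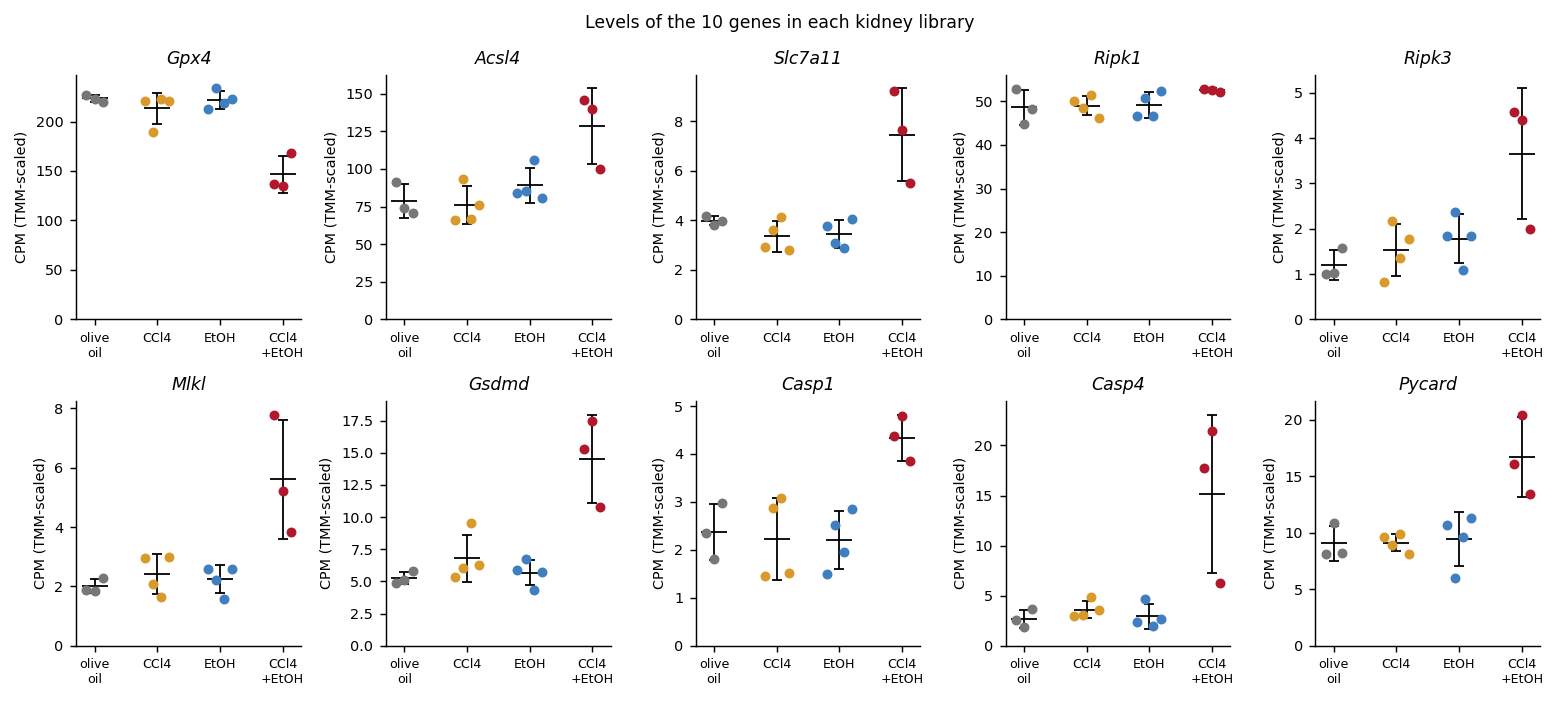
TMM-scaled CPM of each gene on a linear axis from 0, with 1 point per kidney library in replicate order from left to right, and bars for the mean ± SD of each group (3, 4, 4 and 3 libraries). In 6 genes every CCl4+EtOH library lies above all others, and for Gpx4 every one lies below all others. The rightmost CCl4+EtOH point (replicate 3) lies between the olive oil points and the other CCl4+EtOH points in all genes but Ripk1.

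Gpx4 encodes the selenium enzyme that reduces phospholipid hydroperoxides with glutathione and is the central brake on ferroptosis. It stood at 227, 223 and 220 CPM under olive oil, 221, 190, 223 and 221 CPM under CCl4, 212, 234, 219 and 223 CPM under EtOH, and 136, 135 and 168 CPM under CCl4+EtOH. All 3 CCl4+EtOH libraries were below each of the other 11, and the single treatments overlapped olive oil. The fall against olive oil was -0.61 ± 0.10 on the log2 scale (SE, edgeR adjusted p = 0.000651). Against EtOH it was -0.60 ± 0.09 (edgeR adjusted p = 0.000558) and against CCl4 -0.54 ± 0.09 (edgeR adjusted p = 0.000808). Gpx4 was the only one of the 10 genes that still passed against olive oil when CCl4+EtOH replicate 3 was the sole library of its group, a fit that takes its spread from the other groups. Gpx4 has processed pseudogenes, and the sources used here do not say how reads shared with them were counted.

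Acsl4 encodes the acyl-CoA synthetase that supplies arachidonoyl and adrenoyl chains to phospholipids, the substrates whose peroxidation drives ferroptosis. Its levels were 91.3, 73.8 and 70.5 CPM under olive oil, 66.3, 93.6, 67.0 and 76.4 CPM under CCl4, 84.1, 85.5, 106 and 80.9 CPM under EtOH, and 146, 140 and 100 CPM under CCl4+EtOH. Replicates 1 and 2 of CCl4+EtOH were above every other library, while replicate 3 lay below the highest EtOH library. Acsl4 rose by 0.71 ± 0.17 (log2, SE) against olive oil (edgeR adjusted p = 0.00533), by 0.76 ± 0.15 against CCl4 (edgeR adjusted p = 0.00233) and by 0.53 ± 0.15 against EtOH (edgeR adjusted p = 0.0177). The rise against EtOH no longer passed without CCl4+EtOH replicate 1 (edgeR adjusted p = 0.0894) or replicate 2 (edgeR adjusted p = 0.0782).

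Slc7a11 encodes the light chain of the cystine/glutamate exchanger that imports cystine for glutathione synthesis. It was at 4.17, 3.80 and 3.96 CPM under olive oil, 2.90, 3.60, 4.13 and 2.80 CPM under CCl4, 3.77, 3.07, 2.89 and 4.06 CPM under EtOH, and 9.22, 7.63 and 5.48 CPM under CCl4+EtOH. Every CCl4+EtOH library was above every other library. The rise was 0.91 ± 0.22 against olive oil (log2, SE, edgeR adjusted p = 0.00594), 1.11 ± 0.20 against EtOH (edgeR adjusted p = 0.00134) and 1.15 ± 0.20 against CCl4 (edgeR adjusted p = 0.000972). Slc3a2, the heavy chain that pairs with it, did not pass the test against olive oil, at 206 ± 40.7 CPM (SD, n = 3) there and 192 ± 81.1 CPM (SD, n = 3) under CCl4+EtOH (edgeR adjusted p = 0.769).

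Within each library, the ratio of Acsl4 counts to Gpx4 counts was between 0.320 and 0.402 under olive oil, between 0.301 and 0.493 under CCl4 and between 0.363 and 0.485 under EtOH. The CCl4+EtOH libraries had ratios of 1.07 (replicate 1), 1.04 (replicate 2) and 0.594 (replicate 3), each above the other 11 libraries. This ratio, and those of Ripk3 to Ripk1 and Casp4 to Casp1 below, were chosen after the values were seen, do not depend on library scaling, and carry no test.

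**Figure D2:**
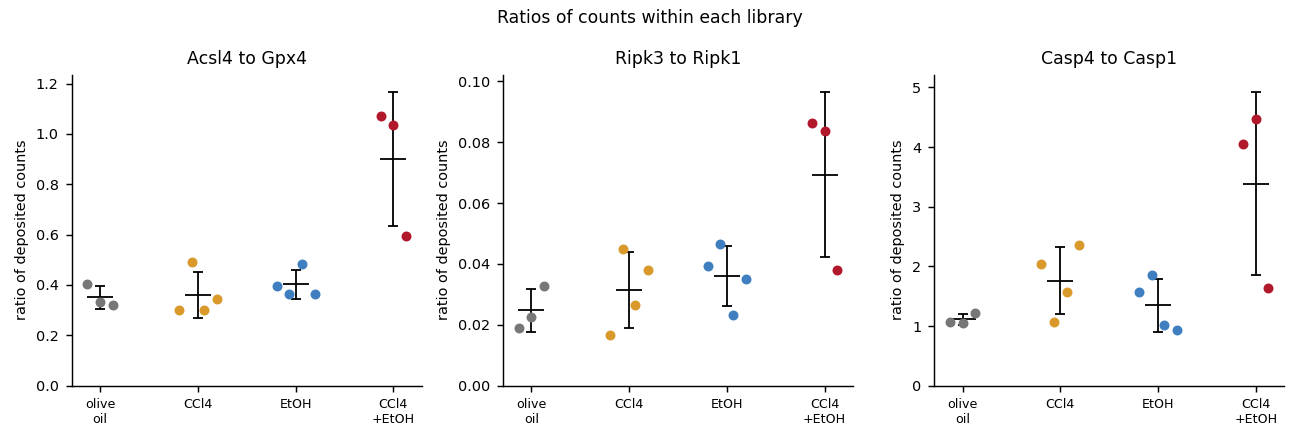
Ratio of deposited counts of Acsl4 to Gpx4, Ripk3 to Ripk1 and Casp4 to Casp1 in each library (points) with the group mean ± SD (bars, 3, 4, 4 and 3 libraries), on linear axes from 0. CCl4+EtOH replicates 1 and 2 lie above all other libraries in each panel, and replicate 3 does so only for Acsl4 to Gpx4.

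Slc7a11 is a textbook target of the amino acid response, and its promoter is shown because the series gives a rise of this gene to set beside it. Promoter windows here are the 250 bases before a RefSeq start in GRCm38.p6. They were found for 9 of the 10 genes, in 14 windows, and were searched on both strands for 6 motifs. Capitals mark matches. The window of Slc7a11, chr3:50443614-50443863 on the minus strand, reads as follows from 5′ to 3′.
Slc7a11: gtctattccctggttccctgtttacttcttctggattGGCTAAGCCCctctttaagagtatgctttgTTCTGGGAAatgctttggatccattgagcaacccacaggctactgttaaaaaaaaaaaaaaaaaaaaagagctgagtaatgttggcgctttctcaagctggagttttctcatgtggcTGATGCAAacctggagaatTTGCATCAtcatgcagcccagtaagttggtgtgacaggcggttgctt
The window held 2 matches to the amino acid response element (TGATGNAA), which begin 66 and 47 bases before the start and lie on opposite strands. That motif was present in 3.452% of all 32851 RefSeq windows of this length and in 1 of the 14 windows of these genes. It also held 1 match to an interferon-gamma-activated site (GAS, TTCNNNGAA, in 7.02% of all windows) and 1 to a loose NF-kB motif (GGG and CC with 5 free bases between them, in 45.8% of all windows). A match is a run of letters and not a measured binding site.

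Ripk1 encodes the receptor-interacting kinase that stands at the fork between survival, apoptosis and necroptosis downstream of tumour necrosis factor receptors. It varied little between libraries, from 44.8 to 52.9 CPM in the 11 libraries outside CCl4+EtOH and at 52.9, 52.6 and 52.1 CPM within it. The changes against olive oil, EtOH and CCl4 were 0.11 ± 0.08, 0.10 ± 0.07 and 0.10 ± 0.07 (log2, SE), with edgeR adjusted p of 0.274, 0.319 and 0.298. Ripk1 overlaps Serpinb6a in RefSeq, and the sources used here do not say whether counting used strand.

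Ripk3 encodes the kinase that Ripk1 or Zbp1 recruits and that phosphorylates Mlkl. It was at 0.997, 1.02 and 1.57 CPM under olive oil, 0.83, 2.17, 1.36 and 1.76 CPM under CCl4, 1.83, 2.37, 1.08 and 1.84 CPM under EtOH, and 4.57, 4.40 and 1.99 CPM under CCl4+EtOH. Replicates 1 and 2 of CCl4+EtOH were above all other libraries, and replicate 3 lay within the range of CCl4 and of EtOH. Ripk3 rose by 1.61 ± 0.40 (log2, SE) against olive oil (edgeR adjusted p = 0.00751), by 1.25 ± 0.36 against CCl4 (edgeR adjusted p = 0.0165) and by 1.04 ± 0.36 against EtOH (edgeR adjusted p = 0.0387). The call against CCl4 was lost without CCl4+EtOH replicate 1 (edgeR adjusted p = 0.0770) or replicate 2 (0.0715), and without the 10-week CCl4 libraries (0.0743). The call against EtOH was lost without any of 5 libraries, namely EtOH replicates 1, 3 and 4 and CCl4+EtOH replicates 1 and 2, with edgeR adjusted p up to 0.156. It was also lost in a fit of only those groups (0.0743) and without the 10-week CCl4 libraries (0.0585).

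Mlkl encodes the pseudokinase whose phosphorylated form opens the plasma membrane. It stood at 1.88, 1.86 and 2.28 CPM under olive oil, 2.95, 2.07, 1.65 and 2.98 CPM under CCl4, 2.58, 2.23, 1.57 and 2.60 CPM under EtOH, and 7.79, 5.21 and 3.84 CPM under CCl4+EtOH. The CCl4+EtOH libraries did not overlap any other group. Mlkl rose by 1.49 ± 0.30 (log2, SE) against olive oil (edgeR adjusted p = 0.00221), by 1.33 ± 0.27 against EtOH (edgeR adjusted p = 0.00268) and by 1.22 ± 0.27 against CCl4 (edgeR adjusted p = 0.00403). Its promoter window, chr8:111338206-111338455 on the minus strand of GRCm38.p6, is shown as the contrast to the other 2 printed windows, because none of the 6 motifs was found in it.
Mlkl: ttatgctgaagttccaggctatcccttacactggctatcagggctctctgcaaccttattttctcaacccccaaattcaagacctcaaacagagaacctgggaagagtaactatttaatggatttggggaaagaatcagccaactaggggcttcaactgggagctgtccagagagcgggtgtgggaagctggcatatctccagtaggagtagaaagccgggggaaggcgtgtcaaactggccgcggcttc
The windows of Ripk3 and Pycard likewise held no match, and neither did 1 window each of Gpx4 and Ripk1.

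The 3 necroptosis genes thus differed in their calls, with Ripk3 and Mlkl called higher and Ripk1 not called. Ripk3 to Ripk1 was 0.0189 to 0.0326 counts per count under olive oil, 0.0166 to 0.0449 under CCl4 and 0.0231 to 0.0467 under EtOH. After CCl4+EtOH it reached 0.0863 (replicate 1) and 0.0837 (replicate 2), with 0.0381 for replicate 3, which is within the range of the CCl4 and EtOH libraries.

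Gsdmd encodes the gasdermin that inflammatory caspases cleave into a pore-forming fragment, the executor of pyroptosis. It was at 4.87, 5.08 and 5.80 CPM under olive oil, 5.34, 6.02, 9.51 and 6.26 CPM under CCl4, 5.90, 6.73, 4.37 and 5.77 CPM under EtOH, and 15.3, 17.5 and 10.8 CPM under CCl4+EtOH. All CCl4+EtOH libraries were above all others, and CCl4 replicate 3 was the highest outside that group. Gsdmd rose by 1.47 ± 0.23 (log2, SE) against olive oil (edgeR adjusted p = 0.000591), by 1.35 ± 0.21 against EtOH (edgeR adjusted p = 0.000581) and by 1.10 ± 0.21 against CCl4 (edgeR adjusted p = 0.00156).

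Casp4 encodes caspase-11 of the mouse, the sensor of cytosolic lipopolysaccharide that cleaves Gsdmd without an inflammasome adaptor. It stood at 2.52, 1.90 and 3.63 CPM under olive oil, 2.95, 3.06, 4.84 and 3.59 CPM under CCl4, 2.33, 4.70, 2.01 and 2.66 CPM under EtOH, and 17.7, 21.5 and 6.26 CPM under CCl4+EtOH. Replicate 3 was above every library of the other groups but far below replicates 1 and 2. The rise was 2.50 ± 0.43 (log2, SE) against olive oil (edgeR adjusted p = 0.00104), 2.37 ± 0.39 against EtOH (edgeR adjusted p = 0.000836) and 2.07 ± 0.38 against CCl4 (edgeR adjusted p = 0.00147), the largest point estimate among the 10 genes in each of these comparisons. Set against the olive oil mean, replicates 1, 2 and 3 of CCl4+EtOH were at 6.6, 8.0 and 2.3 times its level.

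The first of the 2 RefSeq promoter windows of Casp4, chr9:5308599-5308848 on the plus strand of GRCm38.p6, is shown because this gene changed most and because NF-kB is a textbook inducer of caspase-11.
Casp4: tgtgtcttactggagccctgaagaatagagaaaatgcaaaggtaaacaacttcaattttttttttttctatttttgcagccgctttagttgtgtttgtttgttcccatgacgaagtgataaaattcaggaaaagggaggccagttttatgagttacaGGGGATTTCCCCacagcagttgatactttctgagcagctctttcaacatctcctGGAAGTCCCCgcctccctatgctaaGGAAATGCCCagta
Capitals mark 5 matches to the loose NF-kB motif. The matches that begin 93, 92 and 91 bases before the start overlap within a single run, and the others begin 39 and 14 bases before it. The motif was found in 9 of the 14 windows of the 10 genes and in 45.8% of all windows, so a single match is common. The 2 windows of Casp4 overlap and share their matches, and windows 2 and 3 of Gpx4 overlap and share 1. The 14 windows are thus not separate sequences. No window of these genes matched the interferon-stimulated response element (GAAA repeated after 2 free bases, in 2.977% of all windows), the antioxidant response element (TGACNNNGC, in 10.16%) or the AP-1 motif (TGANTCA, in 6.749%), and the GAS motif was in 2 of the 14. The windows of Ripk1 that differ in start differed in matches, 1 having an NF-kB match and 2 GAS matches and the other none.

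Casp1 encodes the inflammasome caspase that matures interleukin-1 beta and interleukin-18 and cleaves Gsdmd. It was at 2.35, 1.81 and 2.98 CPM under olive oil, 1.45, 2.86, 3.07 and 1.52 CPM under CCl4, 1.49, 2.52, 1.96 and 2.85 CPM under EtOH, and 4.37, 4.80 and 3.84 CPM under CCl4+EtOH. The CCl4+EtOH libraries were above all others, with a smaller SD relative to the mean than the other pyroptosis genes had in that group. Casp1 rose by 0.87 ± 0.32 (log2, SE) against olive oil (edgeR adjusted p = 0.0473), by 0.98 ± 0.30 against EtOH (edgeR adjusted p = 0.0205) and by 0.96 ± 0.30 against CCl4 (edgeR adjusted p = 0.0222). Its adjusted p against olive oil was the highest among the 9 genes called. That call was lost in 7 of 14 fits that left out 1 library (olive oil replicates 1 and 2, CCl4 replicate 2, EtOH replicates 2 and 3, and CCl4+EtOH replicates 1 and 2), with edgeR adjusted p up to 0.169, and with no filter on low counts (0.0546) or without EtOH replicates 1 to 3 (0.0617). The call against EtOH was lost without EtOH replicate 1 or 3 or CCl4+EtOH replicate 1 or 2 (edgeR adjusted p up to 0.0784). Against CCl4 it was lost without CCl4 replicate 1 or 4 or CCl4+EtOH replicate 1 or 2 (edgeR adjusted p up to 0.0793), in a fit of only those groups (0.0518) and without the 10-week CCl4 libraries (0.0571).

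Pycard encodes ASC, the adaptor that joins inflammasome sensors to caspase-1. It stood at 8.10, 10.8 and 8.24 CPM under olive oil, 9.59, 8.88, 9.86 and 8.15 CPM under CCl4, 10.7, 5.98, 9.66 and 11.3 CPM under EtOH, and 16.1, 20.5 and 13.4 CPM under CCl4+EtOH. No CCl4+EtOH library overlapped another group. Pycard rose by 0.88 ± 0.21 (log2, SE) against olive oil (edgeR adjusted p = 0.00641), by 0.83 ± 0.20 against EtOH (edgeR adjusted p = 0.00612) and by 0.87 ± 0.20 against CCl4 (edgeR adjusted p = 0.00433).

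Casp4 and Casp1 are neighbouring related genes, and the sources used here do not say how reads shared between them were counted. Casp4 counts per Casp1 count were 1.05 to 1.22 under olive oil, 1.07 to 2.36 under CCl4 and 0.933 to 1.86 under EtOH. After CCl4+EtOH the ratio reached 4.05 (replicate 1) and 4.47 (replicate 2), with 1.63 for replicate 3, which overlapped the single treatments.

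**Figure D3:**
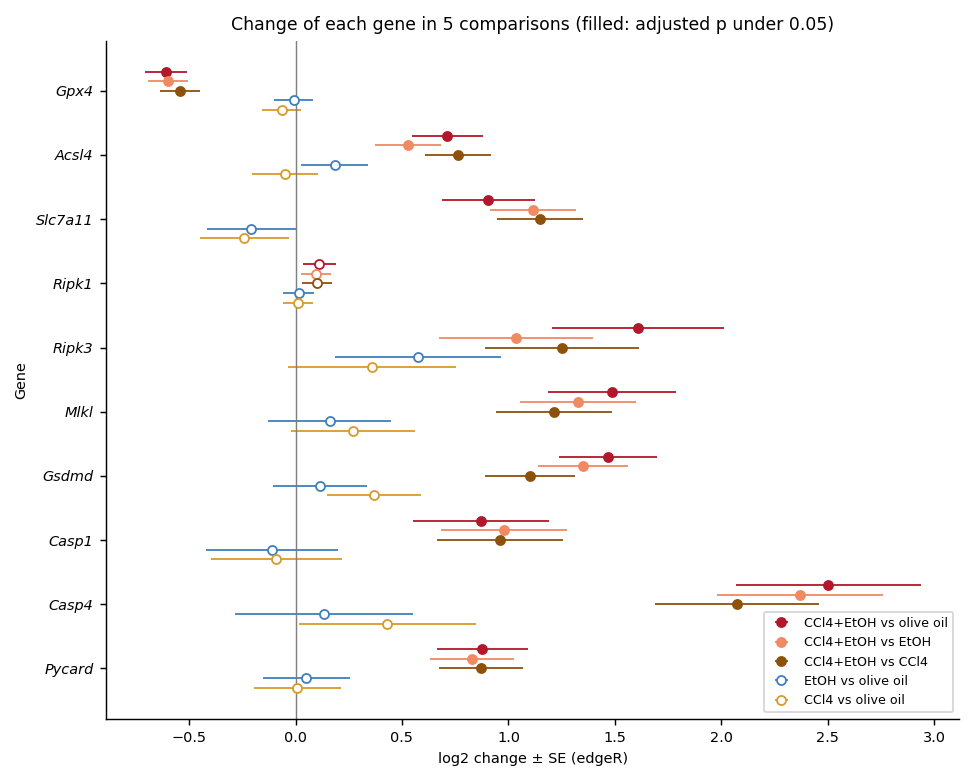
Log2 change (point) and SE (bar) of each gene in 5 comparisons of the edgeR fit, with filled points for adjusted p under 0.05. All points of EtOH vs olive oil and CCl4 vs olive oil are open, Ripk1 has no filled point, and Casp4 lies farthest to the right in each CCl4+EtOH comparison.

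Neither single treatment gave a call in these genes. For EtOH against olive oil, 0 of the 10 passed, with log2 changes from -0.21 (Slc7a11) to 0.58 (Ripk3), where 0.168% of all genes did. For CCl4 against olive oil 0 of the 10 passed, with log2 changes from -0.24 (Slc7a11) to 0.43 (Casp4), and the background was 0%. None of the 10 had an unadjusted p under 0.05 in edgeR in these comparisons, against 1679 of 16105 genes for EtOH and 640 for CCl4, and DESeq2 and limma-voom called 0 of the 10 as well. The SE of these changes was 0.39 for Ripk3 in both comparisons, so changes in genes of low count are poorly bounded, and a missed threshold does not show that levels were equal.

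In the order of group means, CCl4+EtOH was the highest group for 9 genes and the lowest for Gpx4. The order of the other groups differed between genes, and those groups overlapped their neighbours in the order in all 10 genes. Acsl4, Ripk1 and Ripk3 had overlapping neighbours throughout. Counted by libraries that do not overlap between groups, 9 genes were separated from olive oil (43.7% of all genes were), 7 from EtOH (32.4%) and 9 from CCl4 (35.1%). Ripk1 was among those separated from CCl4 while Ripk3 was not.

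The interaction asked whether the change from EtOH to CCl4+EtOH differed from the change from olive oil to CCl4. It was called for 3 of the 10 genes, 2 higher and 1 lower, where 9.12% of all genes were called, 5.49% higher and 3.63% lower. Slc7a11 had an interaction of 1.35 ± 0.29 (log2, SE, edgeR adjusted p = 0.0181), Gpx4 of -0.53 ± 0.13 (edgeR adjusted p = 0.0252) and Casp4 of 1.94 ± 0.57 (edgeR adjusted p = 0.0483). The other genes did not pass, with Gsdmd nearest at 0.98 (edgeR adjusted p = 0.0575), then Pycard at 0.82 (0.0795), and Ripk1 last at 0.08 (0.622). These calls moved with single libraries. That of Casp4 was lost in 12 of 14 fits that left out 1 library (edgeR adjusted p up to 0.132), in limma-voom (0.148) and with no filter on low counts (0.0594), that of Gpx4 in 5 (olive oil replicates 1 and 2, CCl4 replicate 1, CCl4+EtOH replicates 1 and 2) and that of Slc7a11 in 3 (olive oil replicate 1, CCl4+EtOH replicates 1 and 2). Without the 10-week CCl4 libraries those of Gpx4 (edgeR adjusted p = 0.0889) and Casp4 (0.0797) were lost. Gsdmd passed in that fit at 1.24 (edgeR adjusted p = 0.0452), where 3.57% of all genes were called. It also passed without CCl4 replicate 3 (edgeR adjusted p = 0.0260), where 6.87% were called. In DESeq2, Gsdmd and Pycard passed (DESeq2 adjusted p = 0.0267 and 0.0499), where 15.6% were called. Without CCl4+EtOH replicate 3, Acsl4, Mlkl, Gsdmd and Pycard passed too, for 7 of the 10, in a fit that called 29.8% of all genes.

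With CCl4+EtOH replicate 3 as the only library of its group, 1 of the 10 genes was called against olive oil (Gpx4), 0 against EtOH and 0 against CCl4, where 5.19%, 1.77% and 3.39% of all genes were. In that library, 9 of the 10 genes lay between the olive oil group and replicates 1 and 2, the exception being Ripk1. Its log2 change against olive oil was 1.03 for Gsdmd (edgeR adjusted p = 0.0528), 1.23 for Casp4 (0.116) and 0.35 for Acsl4 (0.354). With EtOH replicates 1 to 3, those with adrenal transcripts, left out, the EtOH group is replicate 4 alone, and 0 of the 10 genes were called against it, where 2% of all genes were. The point estimates in that fit were -0.62 for Gpx4, 2.49 for Casp4 and 1.31 for Gsdmd, close to those of the full group. Pycard was at 0.54 and Casp1 at 0.59, against 0.83 and 0.98 with the full group. EtOH replicate 4 was the highest EtOH library for Pycard (11.3 CPM) and Casp1 (2.85 CPM). It also had the highest summed level of neutrophil markers of any library, 226 CPM. The part of these levels in the lower estimates was not tested.

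The rest of each pathway was followed through lists of 34 ferroptosis, 31 necroptosis and 34 pyroptosis genes that leave out the 10 genes above, and Casp8 is in the last 2 of these. Against olive oil, 3 of 33 tested ferroptosis genes rose and 10 fell after CCl4+EtOH, with a median log2 change of -0.19. The 13 called are 39.4% of the list, near the 35.4% over all genes tested. The enzymes that make cysteine and glutathione were among those that fell. Cbs, the first enzyme of transsulfuration, was at 295 ± 21.4 CPM under olive oil, 252 ± 17.8 under CCl4, 197 ± 22.3 under EtOH and 78.3 ± 12.7 under CCl4+EtOH (SD, n = 3, 4, 4 and 3), and fell by 1.91 on the log2 scale (edgeR adjusted p = 4.08e-06). Cth, the next enzyme, fell by 0.95 (edgeR adjusted p = 0.000623). Gclc and Gclm, the subunits of glutamate-cysteine ligase, fell by 1.60 and 0.92 (edgeR adjusted p = 0.0082 and 0.00214), and Gss, glutathione synthetase, by 0.78 (edgeR adjusted p = 0.00136).

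Gclc varied widely under olive oil, at 1147, 715 and 380 CPM, and it did not pass against EtOH (edgeR adjusted p = 0.186) or CCl4 (0.423), whereas Cbs, Cth, Gclm and Gss passed in those comparisons as well. The call of Gclm against CCl4 was lost without CCl4 replicate 4 or CCl4+EtOH replicate 2 (edgeR adjusted p up to 0.0928). Slc40a1, the iron exporter ferroportin, rose by 0.90 (edgeR adjusted p = 0.000325), Nfe2l2, the transcription factor of the antioxidant response, by 0.47 (0.00258), and Gch1, which makes the radical-trapping cofactor tetrahydrobiopterin, by 1.19 (0.0277). The call of Gch1 was lost without any 1 of the 3 olive oil libraries or CCl4+EtOH replicate 1 or 2 (edgeR adjusted p up to 0.0995). Hmox1, the haem oxygenase, Tfrc, the transferrin receptor, and Aifm2, the glutathione-independent ferroptosis suppressor, did not pass, with log2 changes of 0.10, 0.15 and 0.18 (edgeR adjusted p = 0.793, 0.838 and 0.435). Many of the listed enzymes are abundant in tubule cells, and the proximal tubule marker level was lower in the same libraries. Its part in these falls was not tested.

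Of 30 tested necroptosis genes, 10 rose and 3 fell against olive oil, with a median of 0.10. The 13 called are 43.3% of the list, beside 35.4% over all genes tested. Tnfaip3, the ubiquitin-editing enzyme A20, was at 8.16 ± 1.07 CPM (SD, n = 3) under olive oil and 35.3, 47.0 and 16.8 CPM in the CCl4+EtOH libraries, a rise of 2.02 (log2, edgeR adjusted p = 0.000718). Birc3 and Birc2, the ubiquitin ligases that keep Ripk1 in its survival complex, rose by 1.71 and 1.16 (edgeR adjusted p = 0.000675 and 0.00214). Tnf, Traf2 and the receptor Tnfrsf1a rose by 1.84, 0.64 and 0.61 (edgeR adjusted p = 0.0279, 0.00782 and 0.00398). Fadd, Ppm1b and Cyld fell by 0.34, 0.28 and 0.21 (edgeR adjusted p = 0.0231, 0.00583 and 0.0466). The call of Cyld was lost in 13 of 14 fits that left out 1 library, all but the fit without CCl4 replicate 1 (edgeR adjusted p up to 0.173). That of Fadd was lost without olive oil replicate 1 or 2 or CCl4+EtOH replicate 1 or 2 (up to 0.120), and that of Tnf without olive oil replicate 2 or 3 or CCl4+EtOH replicate 1 or 2 (up to 0.131).

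Casp8, the caspase that cleaves Ripk1 and Ripk3 and so restrains necroptosis, did not pass at 0.00 (log2, edgeR adjusted p = 0.983), with 46.0 ± 3.20 CPM under olive oil and 46.1 ± 8.47 CPM under CCl4+EtOH (SD, n = 3 each). Zbp1, the nucleic acid sensor that engages Ripk3, did not pass against olive oil at 0.93 (edgeR adjusted p = 0.0901) but rose against EtOH by 1.16 (0.0289) and against CCl4 by 1.11 (0.0347). Without CCl4+EtOH replicate 3 it passed against olive oil (edgeR adjusted p = 0.0132). The call against EtOH was lost without EtOH replicate 1, 3 or 4 or CCl4+EtOH replicate 1 or 2 (up to 0.155), and that against CCl4 without CCl4 replicate 1, 2 or 4 or CCl4+EtOH replicate 1 or 2 (up to 0.174).

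Of 33 tested pyroptosis genes, 14 rose and 3 fell against olive oil, with a median of 0.75. The 17 called are 51.5% of the list, beside 35.4% over all genes tested. Panx1, a channel protein that caspase-11 cleaves, was at 0.939, 0.265 and 0.705 CPM under olive oil and 6.68, 4.92 and 3.93 CPM under CCl4+EtOH, and rose by 3.05 (log2, edgeR adjusted p = 0.000304). Casp12 rose by 1.75 (edgeR adjusted p = 0.000394), Il1b, the cytokine that caspase-1 matures, by 1.63 (0.0317) and Nlrp3, an inflammasome sensor, by 1.29 (0.0341). Naip1, Naip6 and Nlrp1a rose by 2.49, 1.54 and 1.59 (edgeR adjusted p = 0.00195, 0.00774 and 0.0135), but they belong to families of near-identical copies, so their separate values are uncertain. The calls of Il1b and Nlrp3 were lost without any 1 of the 3 olive oil libraries or CCl4+EtOH replicate 1 or 2 (edgeR adjusted p up to 0.102 and 0.120), and that of Nlrp1a without olive oil replicate 2 or CCl4+EtOH replicate 2 (up to 0.0720). Il18, another cytokine that caspase-1 matures, did not pass at 0.01 (edgeR adjusted p = 0.988).

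The sensors did not move one way. Nlrp6, a sensor known from epithelia, fell by 1.40 (log2, edgeR adjusted p = 0.00142), from 203 ± 31.5 to 76.8 ± 39.8 CPM (SD, n = 3 each). Nlrc4, the partner of the Naip proteins, fell by 1.13 (edgeR adjusted p = 0.0187), and Nek7, a kinase that Nlrp3 needs, by 0.39 (0.00304). The call of Nlrc4 was lost without olive oil replicate 1 or 3 or CCl4+EtOH replicate 2 (edgeR adjusted p up to 0.0766).

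**Figure D4:**
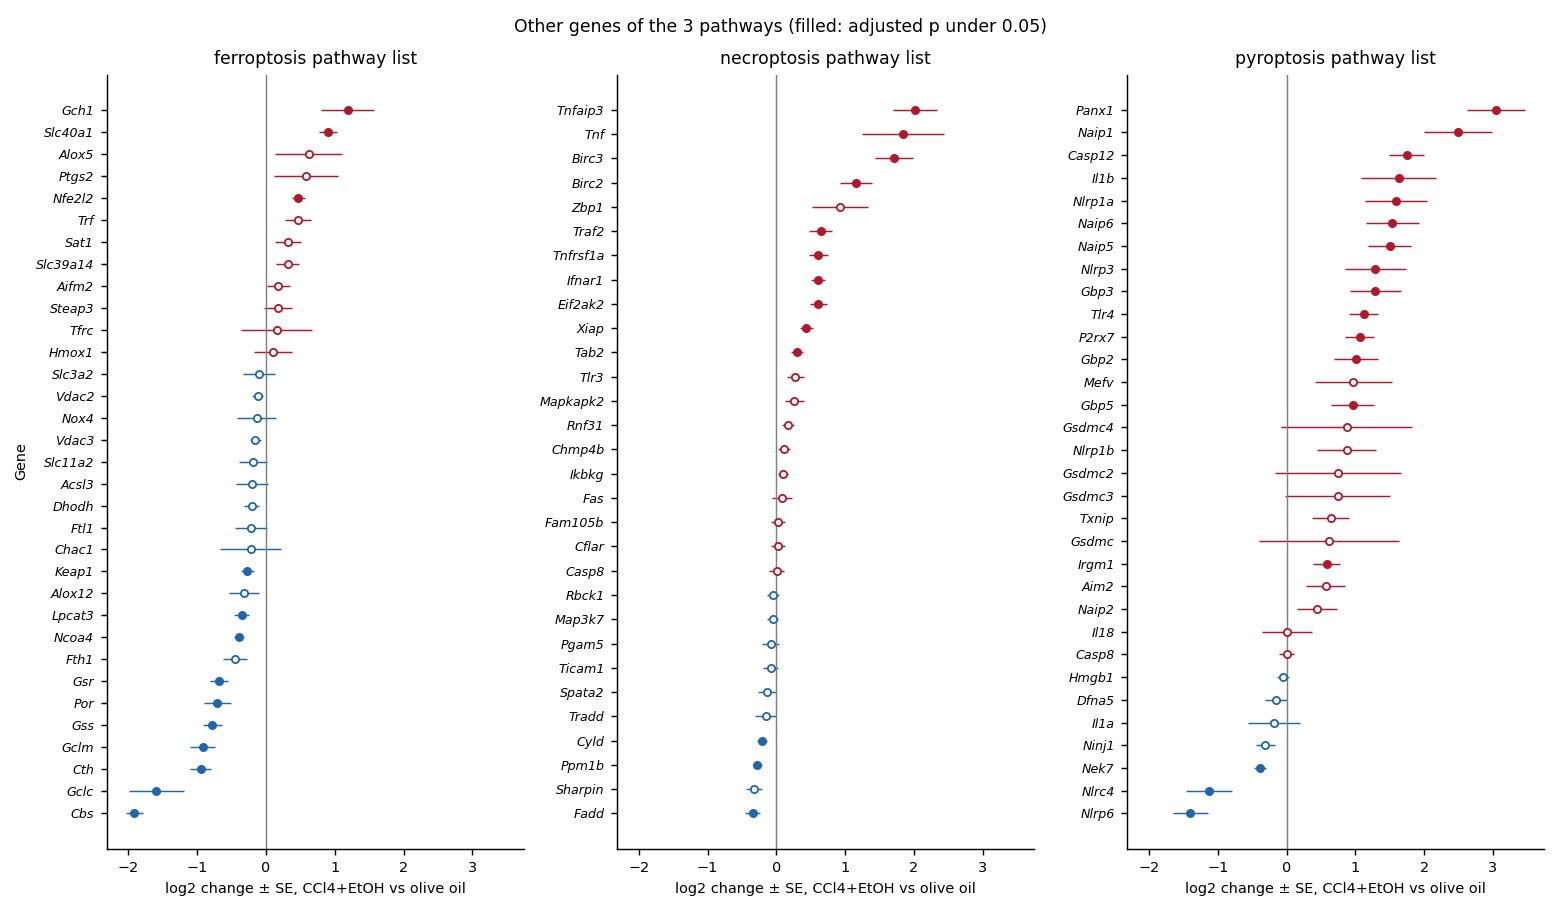
Log2 change of CCl4+EtOH vs olive oil (point) with SE (bar) for tested genes of the ferroptosis, necroptosis and pyroptosis lists, sorted within each panel, red above 0 and blue below, filled where edgeR adjusted p is under 0.05. The filled points number 13, 13 and 17, mostly below 0 in the first panel and above 0 in the other panels.

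Against EtOH, 2 ferroptosis genes rose and 9 fell, 10 necroptosis genes rose and 1 fell, and 16 pyroptosis genes rose and 2 fell. These are 33.3%, 36.7% and 54.5% of the lists, beside 34.2% over all genes. Against CCl4 the counts were 4 and 8, 12 and 1, and 13 and 2, or 36.4%, 43.3% and 45.5% of the lists, beside 34.8% over all genes. No gene of these lists was called for either single treatment against olive oil in edgeR. For EtOH, 7 of 33, 2 of 30 and 9 of 33 genes had an unadjusted p under 0.05 in edgeR, beside 1679 of all 16105 genes. For CCl4 the counts in the same order were 1, 2 and 3, beside 640 of all 16105 genes. DESeq2 called 1 ferroptosis and 2 pyroptosis genes for EtOH, where it called 2.17% of all genes. The list counts against olive oil moved with single libraries and the choice of fit. The pyroptosis count of 17 was 11 without olive oil replicate 2, where 26% of all genes were called. It was 11 without CCl4+EtOH replicate 1 and 9 without CCl4+EtOH replicate 2, where 24% of all genes were called in each fit. The ferroptosis count of 13 was 23 without CCl4+EtOH replicate 3, in a fit that called 45.2% of all genes. The necroptosis count of 13 was 6 in a fit of only the groups compared, which called 21% of all genes. A fit with CCl4+EtOH replicate 3 as the only library of its group rests on 1 library there, so its list counts are not given.

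Markers of macrophages were higher in the libraries in which the pyroptosis genes were higher. Of 16 macrophage and monocyte markers, 15 rose against olive oil, where 18.9% of all genes were called higher, and Csf1r did not pass. Their summed level was 276 to 391 CPM under olive oil, 233 to 612 CPM under CCl4, 223 to 376 CPM under EtOH, and 929, 1087 and 720 CPM in CCl4+EtOH replicates 1, 2 and 3. Of this list 0 markers were at 0 in any group. The highest library outside CCl4+EtOH, CCl4 replicate 3, was also the highest outside that group for Gsdmd, Casp1 and Casp4. Over the 11 libraries outside CCl4+EtOH, Pearson's r with the log2 summed level was 0.72 for Gsdmd, 0.67 for Casp4, 0.65 for Casp1, and -0.21 for Pycard (Spearman's rho 0.46, 0.57, 0.55 and -0.30), and 0.52, 0.44, 0.47 and -0.36 over the 9 libraries left without the 2 farthest from the median. For the necroptosis genes r was 0.53 for Ripk1, 0.23 for Ripk3 and -0.27 for Mlkl (rho 0.47, 0.18 and -0.05), and 0.40, 0.61 and 0.21 over the 9. For the ferroptosis genes r was 0.19 for Gpx4, -0.25 for Acsl4 and 0.40 for Slc7a11 (rho 0.50, -0.05 and 0.35), and 0.09, 0.12 and 0.41 over the 9. These describe libraries that share treatment groups. The part of macrophages in the rises was not tested.

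**Figure D5:**
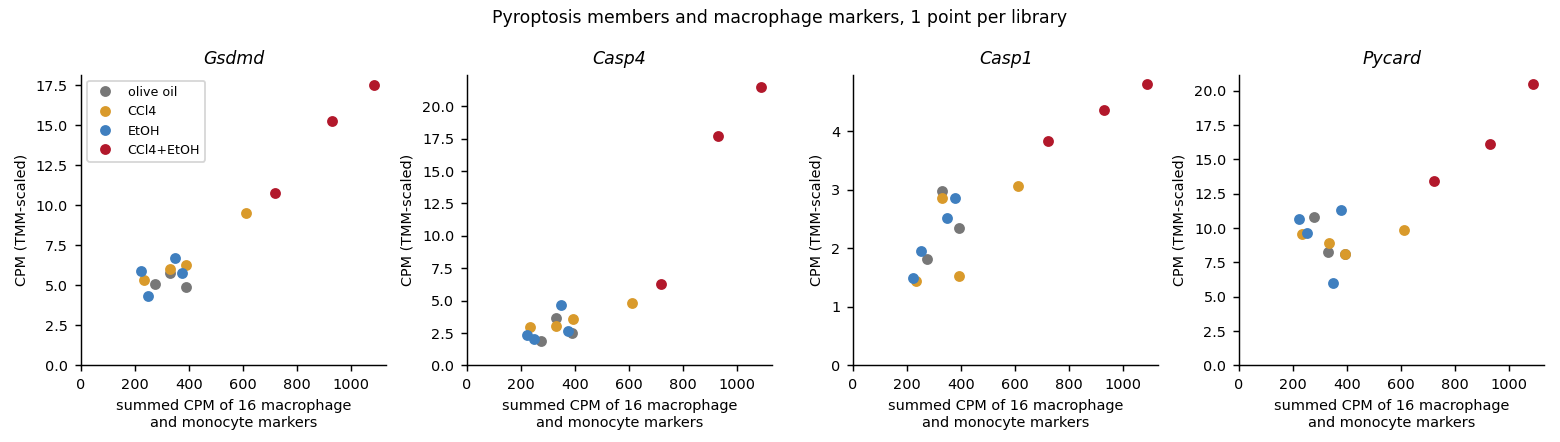
TMM-scaled CPM of Gsdmd, Casp4, Casp1 and Pycard (vertical) against the summed CPM of 16 macrophage and monocyte markers (horizontal), 1 point per library, coloured by group, on linear axes from 0. The 3 CCl4+EtOH libraries lie to the upper right in each panel at 720 to 1087 CPM of the markers, and the CCl4 library nearest to them, at 612 CPM, has the highest Gsdmd, Casp4 and Casp1 outside that group.

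Other leukocyte lists gave no call against olive oil, with 0 of 8 neutrophil, 0 of 9 T and NK cell and 0 of 7 B cell markers passing in edgeR (0, 1 and 2 at an unadjusted p under 0.05). Against EtOH, 4 of 9 T and NK cell markers rose (Cd4, Cd8a, Lck and Nkg7), where 18.1% of all genes were called higher. The median log2 change over the list was 0.89. The summed level of that list was 8.83 to 10.9 CPM under olive oil, 3.88 to 8.85 CPM under EtOH and 9.85 to 15.3 CPM under CCl4+EtOH, and its part in the rises against EtOH was not tested. The neutrophil sum was 7.11 to 18.7 CPM under olive oil and 17.5 to 24.7 CPM under CCl4+EtOH, and was highest in EtOH replicate 4 at 226 CPM. All 9 tubule injury markers rose and 7 of 14 proximal tubule markers fell against olive oil, where Gpx4 fell as well. In that comparison 18.9% of all genes were called higher and 16.6% lower. The part of these shifts in the fall of Gpx4 was not tested.

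Over all 14 libraries, Gpx4 ran opposite to the others, with a median r of -0.85 (log2 CPM, 14 libraries that share 4 groups), and Gsdmd and Casp4 had an r of 0.96. Without the CCl4+EtOH libraries the median r of Gpx4 with the others was -0.06, while that of Gsdmd with Casp4 was 0.82 over 11 libraries. The genes whose pattern was most like that of each member, by Pearson's r of log2 CPM over all 14 libraries, are given as a description. That r is given in brackets. Over the 11 libraries outside CCl4+EtOH, r for the same genes ran from 0.68 (Plscr3 with Mlkl) to 0.92 (Fcgr3 with Gsdmd). For Gpx4 they were Atp5h (0.98), Tmem205 (0.98) and Ndufb3 (0.98), of which Atp5h encodes a subunit of mitochondrial ATP synthase and Ndufb3 one of respiratory complex I. For Gsdmd they were Fcgr3 (0.98), an immunoglobulin receptor of myeloid cells, Lrrc25 (0.97) and Apobr (0.97). For Casp4 they were Parp14 (0.98), 9930111J21Rik2 (0.98) and Ifi204 (0.98), and Ifi204 is known as an interferon-inducible gene.

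For Casp1 the nearest were Alox5ap (0.92), the partner of 5-lipoxygenase in leukocytes, Gpr35 (0.91) and Pglyrp2 (0.90). For Pycard they were Zdhhc13 (0.94), Tirap (0.92), an adaptor of Toll-like receptors, and Lepre1 (0.92). For Slc7a11 they were Msn (0.96), Zbtb26 (0.96) and Gmip (0.96), and for Acsl4 F2r (0.94), the thrombin receptor, Praf2 (0.94) and Maml2 (0.94). For Ripk3 they were Pi15 (0.92), Tgif1 (0.92) and Cenph (0.90), and for Mlkl Traip (0.94), Plscr3 (0.93) and Tmem194 (0.93). Ripk1 had the lowest values, with Dynlt1a (0.84), Plcxd3 (0.82) and Dcp1a (0.82).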

How the data were processed

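The authors deposited raw read counts per gene symbol for bulk kidney RNA, with no normalization. GSNAP and mm9 are named per the submitters' processing notes; the sources used here do not name versions, the counting program, the annotation or the use of strand. The table held 14 libraries of 15 samples. Of 23893 rows, 27 carried a date in place of a symbol, 0.168% to 0.209% of the counts, and were left out. No 2 libraries of a group agreed within sampling noise (chi-square per gene at least 9.79). The labels do not say in so many words that each library is a separate animal, so p-values measure the spread between samples.

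Counts were tested with edgeR 4.0.16 (R 4.3.3, filterByExpr by group, TMM, quasi-likelihood F test, robust) in 1 fit of all 4 groups (14 libraries), and p-values were adjusted by Benjamini-Hochberg over 16105 genes, with a threshold of 0.05. SE is the log2 change over the square root of F. Depth limits genes near 1 CPM most. Alternatives were DESeq2 1.42.0, limma-voom (limma 3.58.1), DESeq2 and upper-quartile scaling, other filters, fits of only the groups compared, subsets, and each library left out in turn. The pipeline was tested on simulated data. Promoters are RefSeq windows of GRCm38.p6; since the files use mm9, no read positions were used. The genes named are the 10 members, the 6 most changed per direction with a mean of at least 1 CPM from each pathway list, and fixed genes whether called or not, of which 1 is not reported here. Members and lists were chosen with earlier results of these data known.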

Additional observations from a re-analysis of the deposited data

Results flagged for a closer look

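Gpx4 in CCl4 replicate 2 stood at 190 CPM, apart from the other CCl4 libraries at 221, 223 and 221 CPM. The gap was 0.939 of the range of the group, above Dixon's critical value for 4 samples. Among the 20 pairs of gene and group examined this was the only one, and chance would give such a gap in about 5% of groups.

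The interaction term passed for Gpx4, Slc7a11 and Casp4, at -0.53, 1.35 and 1.94 (edgeR adjusted p = 0.0252, 0.0181 and 0.0483). It sets the change from EtOH to CCl4+EtOH against that from olive oil to CCl4, and 9.12% of all genes were called. Of 23 alternative fits, the call was lost in 8 for Gpx4, 5 for Slc7a11 and 17 for Casp4.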

How the results depend on the processing

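No change of a member that passed the test turned direction under any alternative run; over the 6 contrasts, 1326 of the values stayed on the same side of the threshold, 96 were no longer past it and 8 were newly past it. Leaving out 1 library at a time, the number of members called was 8 to 9 against olive oil, 6 to 9 against EtOH, 7 to 9 against CCl4, 0 in both single treatments and 0 to 7 in the interaction. Over all genes the ranges were 3904 to 7417, 3195 to 7417, 3480 to 7396, 3 to 154 (EtOH against olive oil), 0 (CCl4 against olive oil) and 292 to 4881. The highest counts came without CCl4+EtOH replicate 3, except where the count was 0.

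With CCl4+EtOH replicate 3 as the only library of its group, a choice made after seeing the data, members called were 1, 0, 0 and 0 in the comparisons with olive oil, EtOH and CCl4 and in the interaction, and genes called were 865, 294, 565 and 32, with 183 for EtOH against olive oil. In that fit Gbp2 (-0.22) and Gbp3 (-0.24) turned against olive oil, and Gbp3 (-0.0020) and Tnf (-0.071) against CCl4. In fits of only the groups compared, genes called were 3276 against olive oil, 3390 against EtOH and 94 for EtOH against olive oil. Without the 3 EtOH libraries with adrenal transcripts, they were 335 against EtOH (0 members), 1 for EtOH against olive oil and 3 in the interaction (0 members). DESeq2 called 350 genes for EtOH and 1 for CCl4 against olive oil, and 2519 genes with 5 members in the interaction. Without the 10-week CCl4 libraries the interaction had 586 genes. The cause of these shifts was not tested.

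No paired analysis was possible because the labels give the groups no shared replicate numbers. Ripk3, Mlkl, Casp1 and Panx1 rest on the fewest counts.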
